A study of Mus musculus with 4 samples.

Results

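The Hox genes encode homeodomain transcription factors that lie in 4 clusters, HoxA on mouse chromosome 6, HoxB on 11, HoxC on 15 and HoxD on 2. Of the 38 genes examined, 33 had a probe set assigned to that gene alone and are described here, out of 18193 genes with such a probe set on the array. They were chosen by name, as the Hox genes of the platform annotation, and each is represented by its brightest probe set. Whole dorsal skin was taken from male C57B6 mice at postnatal day 59 (P59, late telogen, 2 arrays) and postnatal day 54 (P54, middle telogen, 2 arrays), telogen being the resting phase of the hair cycle. No treatment or engineered allele is given in the labels. The labels call the arrays biological replicates without saying how many animals each holds or from which level of the back the skin was cut. The p-values therefore measure the spread between these samples, which may be technical. The comparison addresses whether transcript levels differ between these times of the resting phase.

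Hox genes are numbered by their order in the cluster, and genes of the same number in different clusters are paralogues that resemble each other most. Low-numbered genes are switched on early and towards the head of the embryo, and high-numbered genes later and towards the tail, an arrangement known as collinearity. Part of this code persists in adult connective tissue: skin fibroblasts keep a Hox pattern that reflects where on the body they lie. In the hair follicle the HoxC gene Hoxc13 has a further role, since it is needed in mice for normal hair shafts and acts on hair keratin genes.

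The arrays measured whole skin. Probe sets of keratinocyte markers (Krt5, Krt14, Krt1 and Krt10) had means of at least 13.19 and those of dermal fibroblast markers at least 10.34 on the log2 intensity scale. Skeletal muscle markers, of the muscle layer beneath the skin, had means of at least 13.69. P59 replicate 2 stood apart from the other arrays, with a score of 35.4 on the first principal component (57.3% of the variance of the genes tested), against -4.31 for P59 replicate 1 and -8.57 and -22.53 for P54 replicates 1 and 2. Rank correlations between arrays across genes lay between 0.915 and 0.976. In whole tissue, fewer cells of a type and less RNA per cell cannot be told apart.

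Levels are log2 intensities, and a gene was tested if its mean over the 4 arrays was above the 40th percentile of all genes, a log2 intensity of 6.58. This filter passed 15 of the 33 Hox genes, or 45.5%, against 60% of all genes. Probe sets differ in how strongly they bind their target, so a level places a gene relative to the whole array and does not rank Hox transcripts against each other. As a guide to what a probe set reads without its transcript, 16 genes of testis, retina, pancreas, liver, kidney and brain had a median of 4.50. Of these, 14 were below the filter, with means up to 6.54. The exceptions were Prm1 (7.04) and Cyp2e1 (11.92).

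The 15 Hox genes above the filter came mainly from the middle of the numbering. Paralogue groups 4 to 8 held 9 of them, among 12 with a probe set, and groups 9 and 10 held 3 among 7. Groups 11 to 13 held 1, Hoxc13, among 7, and groups 1 to 3 held 2, Hoxb2 and Hoxb3, among 7. This division was drawn with the levels known. By cluster, 3 of 9 HoxA genes passed (Hoxa5, Hoxa7, Hoxa9), 4 of 9 HoxB genes (Hoxb2, Hoxb3, Hoxb4, Hoxb6), 6 of 7 HoxC genes (Hoxc4, Hoxc5, Hoxc6, Hoxc8, Hoxc9, Hoxc13) and 2 of 8 HoxD genes (Hoxd8, Hoxd9). In all 15 the means of both groups were above the filter. These 15 lay between the 41.33 and 85.04 percentile of all genes, with Hoxd8 at the upper end. Just inside the filter were Hoxc5 (6.69) and Hoxa9 (7.08), and just outside it Hoxa3 (6.30) and Hoxb5 (5.91).

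**Figure D1:**
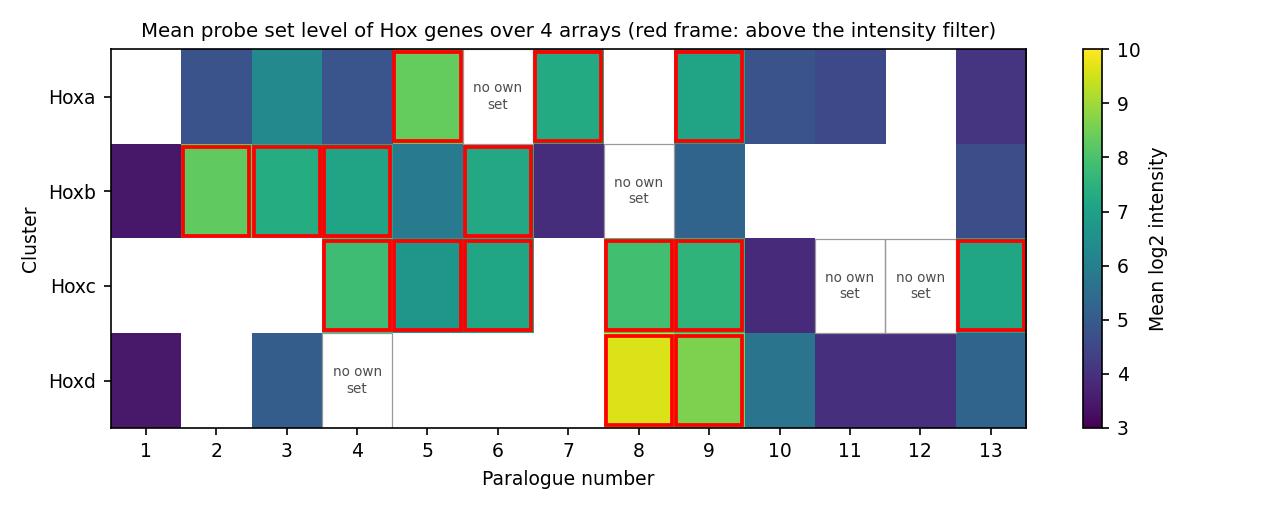
Mean log2 intensity over the 4 arrays (colour) of each Hox gene, by cluster (rows) and paralogue number (columns). Red frames mark the 15 genes above the filter of 6.58, cells marked "no own set" had no probe set of their own, and blank cells hold no gene of the list. Columns 4 to 8 hold 9 frames, while columns 11 to 13 hold 1.

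The 18 Hox genes below the filter had means from 3.44 (Hoxb1) to 6.30 (Hoxa3), with a median of 4.73. The genes of other organs spanned that range too, and Prm1 (7.04) lay above Hoxc5, the lowest of the 15 above the filter. They included the tail-end genes Hoxa11, Hoxa13, Hoxb13, Hoxd11, Hoxd12 and Hoxd13, of which Hoxa13 and Hoxd13 are known for patterning the digits. They also included Hoxb1 (3.44) and Hoxd1 (3.47), head-end genes, Hoxb1 being known for its work in the hindbrain. Presence or absence of these transcripts was not called, since the values carry no detection call.

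Hoxa6, Hoxb8, Hoxc11, Hoxc12 and Hoxd4 had no probe set of their own. A probe set assigned to Hoxb8 and Hoxb7 together read 5.37 and 5.67 at P59 and 5.27 and 5.39 at P54. Of the pair assigned to Hoxd4 and Hoxd3 together, 1 read 6.20 and 6.57 at P59 and 5.91 and 6.26 at P54, and the other 5.61 and 6.11 at P59 and 6.04 and 6.11 at P54. Which gene of such a pair these values come from cannot be told apart.

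The largest positive differences between P59 and P54 among Hox genes were in Hoxc9, Hoxc8, Hoxa9 and Hoxa5, all of groups 5 to 9. Hoxc9, a gene of the thoracic to lumbar level in mouse embryos, read 7.89 and 8.29 at P59 and 7.18 and 6.89 at P54. Both P59 arrays were above both P54 arrays. The log2 difference was 1.05 (SE 0.25, 95% interval 0.50 to 1.60), or 2.08-fold, with a limma adjusted p of 0.293 (0.00158 before adjustment over all genes).

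Hoxc8, its neighbour in the cluster and a gene of the thoracic level in mouse embryos, read 8.26 and 8.55 at P59 and 7.89 and 6.85 at P54. The groups did not overlap, but P54 replicate 1 was nearer to the P59 arrays than to P54 replicate 2. The log2 difference was 1.04 (SE 0.33, 95% interval 0.31 to 1.76), or 2.05-fold (limma adjusted p = 0.518). Leaving out P54 replicate 2 gave 0.52, and leaving out P54 replicate 1 gave 1.555.

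Hoxa9, known in mice for its part in blood cell formation as well as in axial patterning, read 7.49 and 7.62 at P59 and 7.01 and 6.21 at P54. Again the groups did not overlap and P54 replicate 2 was the lowest. The log2 difference was 0.94 (SE 0.29, limma adjusted p = 0.498), or 0.54 without P54 replicate 2. A second probe set of Hoxa9, with a mean of 6.52 and so just below the filter, read 6.70 and 6.31 at P59 and 6.39 and 6.68 at P54, a difference of -0.03. The probe sets of Hoxa9 therefore disagreed, and their mean differed by 0.46.

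Hoxa5, needed in mice for normal lung and airway development, read 8.49 and 8.88 at P59 and 8.18 and 7.79 at P54. The log2 difference was 0.70 (SE 0.25, 95% interval 0.13 to 1.26, limma adjusted p = 0.615), or 1.62-fold. Its second probe set read 7.63 and 7.91 at P59 and 7.24 and 7.61 at P54, a difference of 0.35, so that both sets were higher at P59 and neither overlapped between groups.

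These 4 genes were those of the 15 with an unadjusted p under 0.05 in limma's fit, all higher at P59. That is 26.7% of the Hox genes tested, against 6.49% of all 10916 genes (708 genes), of which 3.47% of all genes were higher. At an adjusted p under 0.05, 0 of the 15 Hox genes were called, against 0.0183% of all genes (2 genes). The count of 4 fell to 1 (Hoxc9) without P54 replicate 2, against 2.53% of all genes, and to 2 (Hoxa9 and Hoxc9) without P59 replicate 2, against 6.27%. The smallest adjusted p of a Hox gene was that of Hoxc9. With 1 array left out, the log2 difference lay between 0.52 and 1.555 for Hoxc8 and between 0.86 and 1.25 for Hoxc9. Over the alternatives with all 4 arrays, the limma adjusted p ranged from 0.0517 to 0.905 for Hoxc8 and from 0.0447 to 0.905 for Hoxc9. The low ends came with the replicate number as a block, where 156 of 10916 genes passed the threshold. An exact permutation test of 2 arrays against 2 cannot go below p = 0.333.

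Further genes of groups 5 to 9 were higher at P59 by less. Hoxa7 read 7.57 and 7.39 at P59 and 7.06 and 7.14 at P54, a difference of 0.38 (SE 0.23). Hoxb6 read 7.33 and 7.48 at P59 and 7.13 and 6.91 at P54, also a difference of 0.38 (SE 0.23). Neither gene overlapped between groups, and both had a 95% interval that included 0. Hoxd8, the Hox gene highest on these arrays relative to all genes, read 9.53 and 10.07 at P59 and 9.82 and 9.09 at P54. Its groups overlapped, with a difference of 0.35 (95% interval -0.32 to 1.01). Its second probe set differed by 0.15. Hoxc5 read 6.85 and 6.72 at P59 and 6.91 and 6.29 at P54, a difference of 0.19, while its other probe sets, both below the filter, differed by -0.29 and -0.17.

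Hoxd9 and Hoxc6 ran the other way within groups 5 to 9. Hoxd9, the cluster neighbour of Hoxd8, read 8.74 and 8.02 at P59 and 8.91 and 8.76 at P54. The groups were apart, though the nearest arrays read 8.74 and 8.76, and the difference was -0.45 (SE 0.27, 95% interval -1.06 to 0.16). Without P59 replicate 2 it was -0.09. Hoxc6 read 7.29 and 6.79 at P59 and 6.89 and 7.63 at P54, with overlapping groups and a difference of -0.22. Of its other probe sets 1 differed by -0.48 and 1 by 0.24.

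The genes of groups 2 to 4 above the filter were all slightly lower at P59, none at an unadjusted p under 0.05. Hoxb2, which patterns the hindbrain in mouse embryos, read 8.20 and 8.14 at P59 and 8.402 and 8.43 at P54. These groups were apart and their replicates close, but the difference was small, -0.25 (95% interval -0.74 to 0.25). Hoxc4 read 7.86 and 7.51 at P59 and 7.98 and 7.92 at P54, a difference of -0.27 that was -0.09 without P59 replicate 2. Hoxb3 read 7.44 and 6.995 at P59 and 7.44 and 7.41 at P54, a difference of -0.21, and 0.02 without P59 replicate 2. Hoxb4, known for its effect on blood stem cell growth, read 6.88 and 7.17 at P59 and 7.14 and 7.18 at P54, a difference of -0.14. P59 replicate 2 was the lowest array for Hoxc4 and Hoxb3, and for Hoxc4 both P59 arrays were below both P54 arrays.

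**Figure D2:**
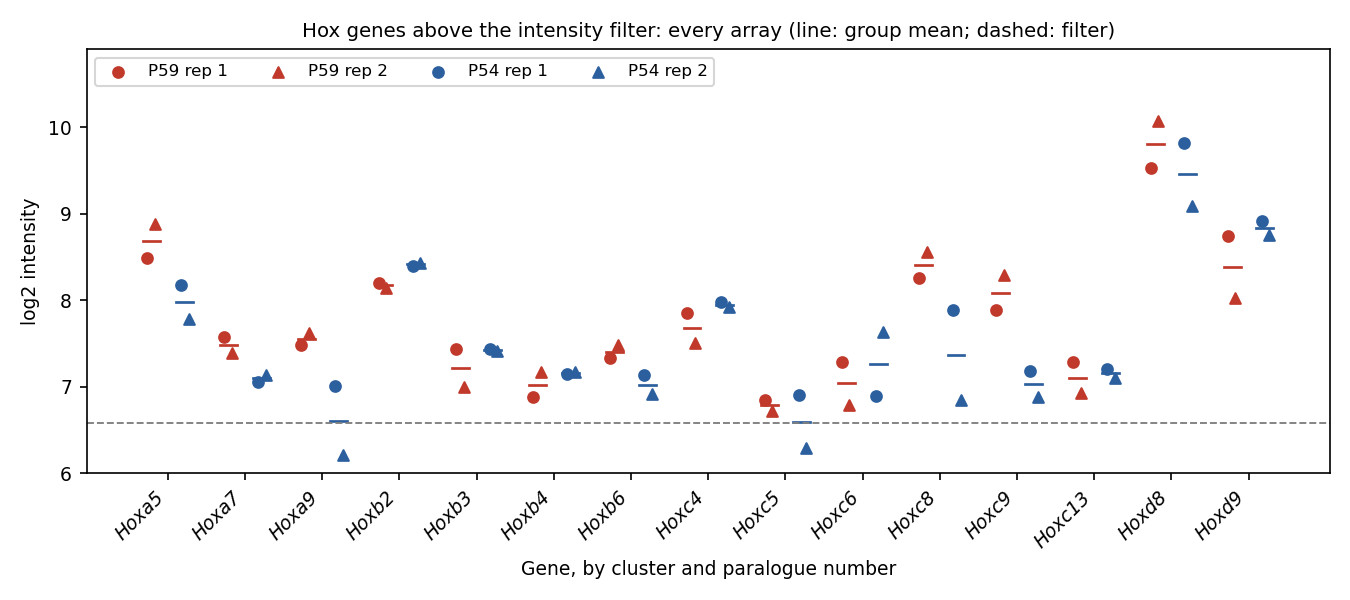
log2 intensity of the 15 Hox genes above the filter on every array, with P59 arrays in red left of P54 arrays in blue, circles for replicate 1, triangles for replicate 2, short lines for group means and a dashed line at the filter of 6.58. Hoxa5, Hoxa7, Hoxa9, Hoxb6, Hoxc8 and Hoxc9 have both red points above both blue points, and Hoxb2, Hoxc4 and Hoxd9 have both below.

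Promoters of the HoxA genes above the filter, which were higher at P59 together, are shown with those of Hoxd8 and Hoxd9, neighbours whose differences had opposite signs. The sequences are RefSeq's, on GRCm38.p6, and give the 250 bases before the gene start, 5′ to 3′ on the gene's strand. Capitals mark a CCAAT box (CCAAT on either strand), the binding site of the general factor NF-Y.
Hoxa5, chr6:52204588-52204837, minus strand: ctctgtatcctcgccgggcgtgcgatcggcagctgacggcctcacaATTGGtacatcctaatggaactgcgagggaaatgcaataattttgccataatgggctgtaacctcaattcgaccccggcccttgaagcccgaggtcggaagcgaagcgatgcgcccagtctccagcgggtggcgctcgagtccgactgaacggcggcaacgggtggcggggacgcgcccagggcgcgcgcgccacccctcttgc
Hoxa7, chr6:52218574-52218823, minus strand: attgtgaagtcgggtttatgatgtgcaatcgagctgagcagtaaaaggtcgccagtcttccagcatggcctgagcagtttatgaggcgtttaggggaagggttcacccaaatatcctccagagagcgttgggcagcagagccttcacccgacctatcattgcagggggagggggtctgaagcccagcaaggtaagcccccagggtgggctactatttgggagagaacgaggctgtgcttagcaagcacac
Hoxa9, chr6:52227371-52227620, minus strand: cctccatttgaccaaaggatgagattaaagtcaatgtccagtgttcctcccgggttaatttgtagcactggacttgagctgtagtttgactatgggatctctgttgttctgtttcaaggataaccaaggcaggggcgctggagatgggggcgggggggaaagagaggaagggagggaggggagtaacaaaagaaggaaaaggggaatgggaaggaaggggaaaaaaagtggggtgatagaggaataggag
Hoxd8, chr2:74704365-74704614, plus strand: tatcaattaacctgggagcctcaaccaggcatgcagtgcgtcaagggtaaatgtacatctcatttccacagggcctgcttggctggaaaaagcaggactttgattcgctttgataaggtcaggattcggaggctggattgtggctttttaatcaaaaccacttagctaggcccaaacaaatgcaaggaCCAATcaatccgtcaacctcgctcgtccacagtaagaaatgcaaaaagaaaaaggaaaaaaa
Hoxd9, chr2:74697513-74697762, plus strand: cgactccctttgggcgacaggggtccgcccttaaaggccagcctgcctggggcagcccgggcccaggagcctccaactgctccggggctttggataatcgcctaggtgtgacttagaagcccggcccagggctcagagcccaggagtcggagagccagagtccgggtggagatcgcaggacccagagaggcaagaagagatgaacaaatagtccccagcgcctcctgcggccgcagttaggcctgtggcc

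The promoter of Hoxa5 held 63.6% G and C with a CpG ratio (observed over expected) of 1.11, and that of Hoxd9 65.2% and 0.49. Those of Hoxa7, Hoxa9 and Hoxd8 held 54.8%, 49.6% and 44.4%, with CpG ratios of 0.39, 0.27 and 0.49. The RefSeq table had promoters for 22 of the 38 Hox genes, in 24 entries, with Hoxc8 and Hoxc9 not among them. Their median CpG ratio was 0.72, against 0.37 over all 32851 promoters of the table. A CCAAT box stood in 14 of the 24 entries, against 33.85% of all promoters. Of the 5 promoters shown, those of Hoxa5 and Hoxd8 held it. The TATA box TATAAA (gene strand) was in 1 entry (Hoxd13) against 7.59% of all promoters. The Pbx-Hox site TGATTNAT (either strand) was in 2 entries (Hoxa2 and Hoxd11) against 2.82%, and the Cdx site TTTATGG (either strand) in 1 (Hoxd4) against 2.43%. None of these 3 was in the promoters shown. Matches of different motifs did not overlap each other in these entries, and a match or its lack describes the letters of this window alone.

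By paralogue number, 8 of the 10 tested genes of groups 5 to 9 were higher at P59 and 2 lower, with a median log2 difference of 0.38. All 4 tested genes of groups 2 to 4 were lower, with a median of -0.23. The genes of groups 2 to 4 below the filter, which were not tested, did not all run that way. Hoxa2 (0.19), Hoxa3 (0.35) and Hoxd3 (0.24) were higher and Hoxa4 (-0.44) lower. Over all 15 Hox genes 8 were higher and 7 lower, with a median of 0.19, against 58.4% higher and 41.6% lower among all genes tested, with a median of 0.05. The Hox median turned to -0.018 without P54 replicate 2 (all genes -0.026) and was 0.34 without P54 replicate 1 (all genes 0.12). The division of the numbering at group 5 was drawn after the values were seen and carries no test. The groups did not overlap for 9 of the 15 Hox genes (60%), 6 higher and 3 lower, against 33.7% of all genes tested, 18.9% higher and 14.8% lower.

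Along the HoxC cluster the tested differences ran -0.27 (Hoxc4), 0.19 (Hoxc5), -0.22 (Hoxc6), 1.04 (Hoxc8), 1.05 (Hoxc9) and -0.05 (Hoxc13). In HoxA all 3 tested genes were higher, with a median of 0.70. In HoxB 1 of 4 was higher, with a median of -0.17, and in HoxD 1 of 2. Among the 18 genes below the filter the differences lay between -0.44 (Hoxa4) and 0.62 (Hoxc10), with 12 above 0 and 6 below. That of Hoxc10 came from P59 replicate 2, at 4.76, whereas P59 replicate 1 read 3.58 and the P54 arrays 3.47 and 3.62. Groups were apart in 5 of these genes, all higher at P59: Hoxa10, Hoxa13, Hoxb5, Hoxb9 and Hoxd13. Of all 7277 genes below the filter, 38.4% were without overlap, 30% higher at P59. At these intensities the differences are rough, and they were not tested.

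**Figure D3:**
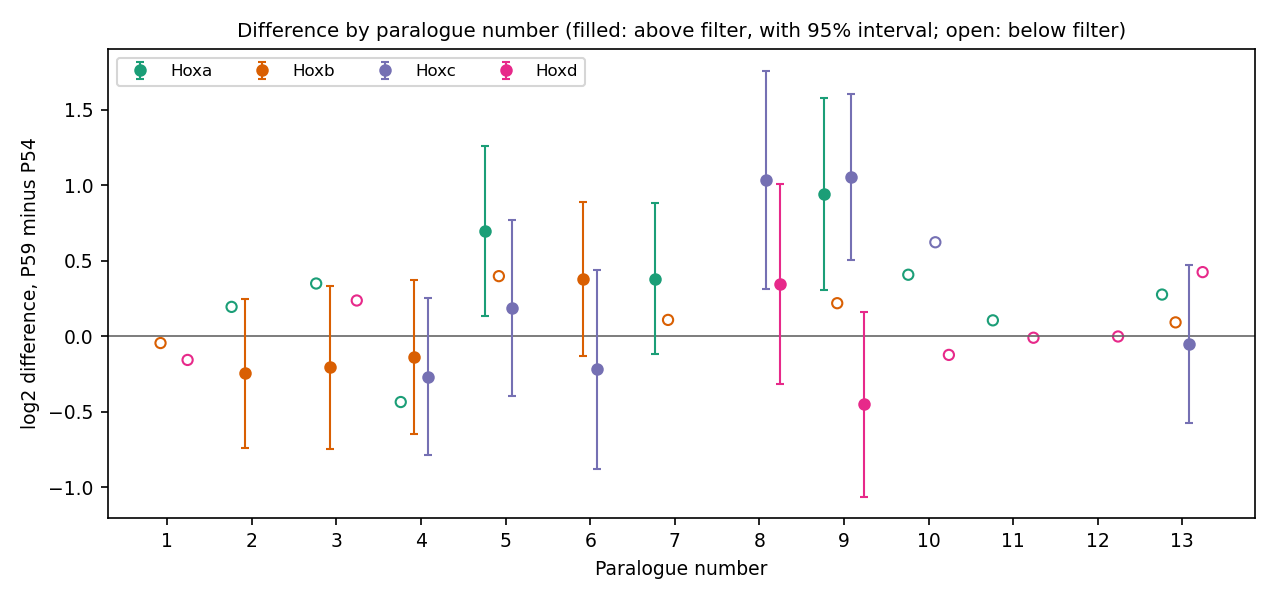
log2 difference, P59 minus P54, of each Hox gene by paralogue number, coloured by cluster. Filled points with 95% limma intervals are the 15 genes above the filter and open points the 18 below it. The filled points of groups 2 to 4 lie below 0, and the 4 whose interval excludes 0 are Hoxa5, Hoxc8, Hoxa9 and Hoxc9.

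The order of the 4 arrays fell into a few patterns. Of the 15 Hox genes, 6 were highest in P59 replicate 2 and lowest in P54 replicate 2 (Hoxa5, Hoxa9, Hoxb6, Hoxc8, Hoxc9 and Hoxd8), 40% against 26% of all genes tested. Another 6 were lowest in P59 replicate 2 (Hoxb2, Hoxb3, Hoxc4, Hoxc6, Hoxc13 and Hoxd9), again 40%, against 23.3% of all genes. P59 replicate 2 and P54 replicate 2 were also the arrays at the ends of the first principal component, and its part in the result was not tested. Without P59 replicate 2 the differences of Hoxc9, Hoxc8, Hoxa9 and Hoxa5 were 0.86, 0.89, 0.87 and 0.50. Without P54 replicate 2 they were 0.90, 0.52, 0.54 and 0.50. Both P59 arrays were above both P54 arrays in these 4 genes, so leaving out 1 array could change the size of a difference and not its sign.

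**Figure D4:**
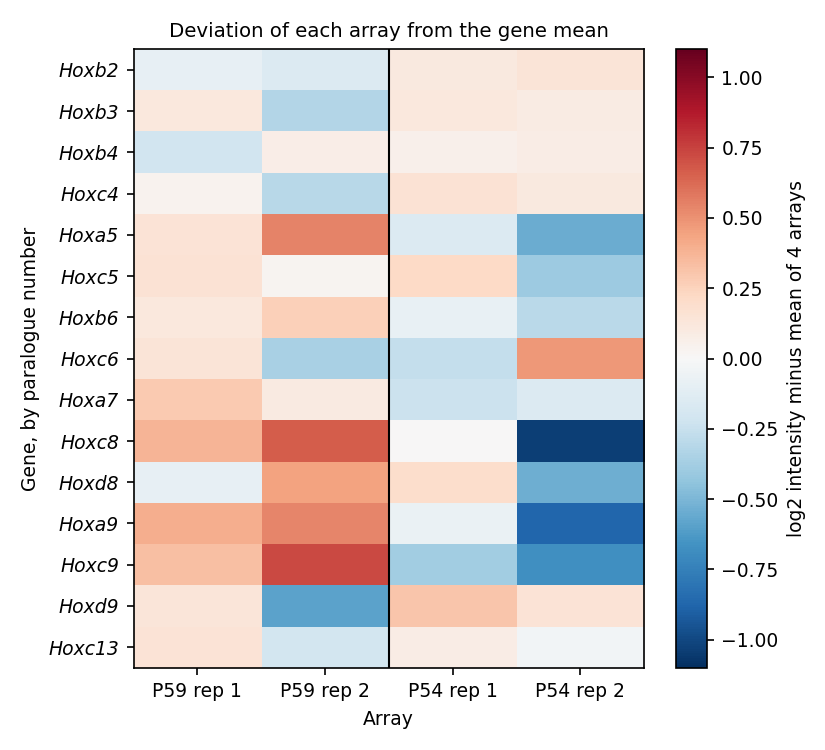
Deviation of each array from the gene's mean over the 4 arrays (colour, log2), for the 15 Hox genes above the filter ordered by paralogue number, with P59 arrays left of the black line and P54 arrays right of it. P59 replicate 2 and P54 replicate 2 carry the strongest colours, in opposite directions for Hoxa5, Hoxc8, Hoxa9 and Hoxc9.

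Noncoding transcripts of the clusters were looked at after their values were seen. Hoxb5os, which RefSeq places across Hoxb5 and Hoxb6, read 6.65 and 6.61 at P59 and 6.91 and 7.20 at P54. It was lower at P59 without overlap, by -0.43 (SE 0.23), above an unadjusted p of 0.05, whereas Hoxb6 and Hoxb5 were higher. The brighter probe set of Hoxd3os1 read 7.86 and 8.34 at P59 and 8.24 and 8.38 at P54, a difference of -0.21. Probe sets of neighbours with overlapping annotation, as of Hoxb3 with Hoxb4 and Hoxa3 with Hoxa4, may share transcripts, which was not tested.

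Hoxc13 was the tail-end gene above the filter and is given beside genes listed as its partners or targets in hair. Whether Hoxc13 acts on each of them was not tested. It read 7.28 and 6.92 at P59 and 7.21 and 7.10 at P54, a difference of -0.05 (95% interval -0.58 to 0.47), and its sign turned when the arrays were normalized again. Of 13 partner and target genes listed for hair, 11 had a probe set, of which 10 were higher and 1 lower, with a median difference of 0.54. The filter passed 5 of them, among them Krtap8-1 only through its P59 level. Krtap8-1, a hair shaft protein gene, read 10.86 and 8.44 at P59 and 6.88 and 4.59 at P54 (difference 3.92). The transcription factor genes Dlx3 (0.42) and Lef1 (0.38) and the keratin gene Krt32 (0.295) were also higher, and none of these 3 was at an unadjusted p under 0.05. The 6 genes below the filter were all higher at P59, by 0.07 (Foxn1) to 2.45 (Krtap11-1), and were not tested. Foxn1, a transcription factor gene that Hoxc13 acts on in mice, read 6.17 and 5.30 at P59 and 5.72 and 5.6001 at P54.

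Markers of the growing hair follicle differed widely between the arrays. All 8 markers with a probe set were higher at P59, with a median difference of 2.71. Groups did not overlap for 7 of them, against 18.9% of all genes tested that were higher without overlap. These 7 passed the filter through their P59 level, with P54 means below it, so that no test of them is given. Their summed level (log2 of summed intensity, 8 genes) was 13.50 and 11.12 at P59 and 9.75 and 8.53 at P54. P59 replicate 1 was the highest array for these markers and P54 replicate 2 the lowest. Hoxc8, Hoxc9, Hoxa9 and Hoxa5 were highest in P59 replicate 2 and also lowest in P54 replicate 2, as were 42% of all genes tested for the lowest array. The part of growing follicles in the Hox differences was not tested.

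Markers of other cell types differed less. The 5 fibroblast markers had a median difference of 0.08, with 4 higher, and summed levels of 15.90 and 15.998 at P59 and 15.94 and 15.87 at P54. Among them Pdgfra, a receptor of dermal fibroblasts, read 10.44 and 10.87 at P59 and 10.05 and 9.99 at P54 (difference 0.64, limma adjusted p = 0.648). All 4 keratinocyte markers were lower at P59 without overlap (median -0.35), against 14.8% of all genes tested. Their summed levels were 15.50 and 15.29 at P59 and 15.64 and 15.74 at P54. The 4 muscle markers had a median difference of -0.015, and both adipocyte markers with a probe set were lower (median -0.32). Endothelial markers had a median of -0.15, and Sox10, the Schwann cell marker with a probe set, differed by -0.29. None of these markers passed the adjusted threshold, and their part in the Hox differences was not tested.

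Transcription factors that mark body position outside the Hox clusters gave 19 genes with a probe set, 6 of them above the filter, 3 higher and 3 lower at P59. Their median difference was 0.08. Meox1, a gene of the embryonic somites, read 7.53 and 7.43 at P59 and 6.74 and 6.75 at P54 (difference 0.73, SE 0.22, limma adjusted p = 0.498). Tbx15, a mouse gene that sets the boundary between back and belly coat colour, read 10.09 and 10.20 at P59 and 9.85 and 9.26 at P54 (0.59, limma adjusted p = 0.762). The groups of Meox1 and Tbx15 did not overlap. Twist1 (0.27) and Meox2 (-0.21) differed less, Meox2 without overlap. Of the 6 tested, 2 were higher and 1 lower without overlap, against 18.9% and 14.8% of all genes tested. Below the filter, Emx2, named after its values were seen, read 6.65 and 7.02 at P59 and 5.84 and 5.33 at P54. It was lowest in P54 replicate 2 and highest in P59 replicate 2, as were Hoxc9 and 26% of all genes tested.

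Cofactors bind DNA together with Hox proteins. Of 9 listed, 6 were tested, 2 higher and 4 lower at P59, with a median difference of -0.06. Pknox2 read 7.97 and 7.84 at P59 and 7.56 and 6.92 at P54 (difference 0.67, SE 0.26, limma adjusted p = 0.704). Its groups did not overlap, and as with Hoxc8 and 42% of all genes tested the lowest array was P54 replicate 2. Its relative Pknox1 read 7.998 and 7.22 at P59 and 8.07 and 8.12 at P54 (-0.49, limma adjusted p = 0.870). Pbx2 (-0.30) and Pbx3 (-0.10) overlapped between groups. Meis1 differed by -0.03.

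Polycomb proteins keep Hox genes silent outside their domain, and Trithorax proteins keep them active within it. Of 27 Polycomb genes listed, 25 were tested, 13 higher and 12 lower at P59, with a median difference of 0.0046. The core enzyme gene Ezh2 differed by 0.01, Eed by 0.03 and Suz12 by -0.06. Phf1, an accessory subunit gene, read 7.34 and 6.74 at P59 and 7.70 and 8.02 at P54 (difference -0.82, SE 0.27, limma adjusted p = 0.550). Phc1 (0.48), Cbx6 (-0.61) and Jarid2 (-0.37) were each without overlap and above an unadjusted p of 0.05. Of the 25 tested, 2 were higher and 6 lower without overlap, against 18.9% and 14.8% of all genes tested.

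Of 15 tested Trithorax and demethylase genes 4 were higher and 11 lower, with a median difference of -0.19. Kdm6b, which encodes a demethylase that removes the Polycomb mark from histone H3, read 8.04 and 6.16 at P59 and 8.34 and 9.67 at P54 (difference -1.90, SE 0.56, limma adjusted p = 0.490). Its arrays ran in the opposite order to Hoxc9, lowest in P59 replicate 2 and highest in P54 replicate 2. Of all genes tested, 23.3% were lowest in P59 replicate 2 and 13.45% highest in P54 replicate 2. Setd1b (-0.35), Wdr5 (-0.26) and Kmt2b (-0.25) were lower without overlap, while Setd1a (-0.32) overlapped between groups. Of the 15 tested, 6 were lower and 0 higher without overlap, against 14.8% and 18.9% of all genes tested. No gene of the cofactor, Polycomb or Trithorax lists passed the adjusted threshold in limma, with 1 in each list at an unadjusted p under 0.05. That is 1 of 6, 1 of 25 and 1 of 15 tested, against 6.49% of all genes tested. The Cdx genes, which switch on Hox genes in the embryo, and the ParaHox and Evx genes, 8 in all, were all below the filter, with means between 3.28 and 5.81.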

How the data were processed

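Each of the 4 arrays measured whole dorsal skin, 2 at P59 and 2 at P54. The deposited file, 1 table for all arrays, holds normalized probe set intensity, linear and not log (6.41 to 24000). RMA and Affymetrix Expression Console are named, without versions, per the submitters' processing notes. Array medians of 64.72 to 69.33 show no depth, and the number of arrays limits precision.

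Intensities were log2-transformed with no pseudocount. Of 45101 probe sets, 34945 had 1 gene symbol in the platform annotation from GEO, whose names may be outdated, leaving out the 64 control sets. The set with the highest mean stood for its gene. All 38 Hox symbols matched RefSeq (GRCm38.p6), used for names and promoters. The 10916 genes above the 40th percentile were fitted in limma 3.58.1 (R 4.3.3, lmFit and eBayes, 2 residual and 8.18 prior degrees of freedom), with Benjamini-Hochberg adjustment over all of them at 0.05. The procedure was tested on simulated data. The Hox genes, the other lists and the alternatives were chosen with earlier results of these data known. All 38 Hox genes are accounted for, and from each other list up to 4 genes with the smallest p are named. Others (Ezh2, Eed, Suz12, Meis1, Kmt2b, Foxn1, Krtap11-1, Emx2, Pdgfra, Sox10) were chosen after their values were seen. The labels do not pair same-numbered arrays, whose deviations from the group means correlated at -0.037 across genes. With 1 replicate difference per time point, this value cannot settle whether they were paired.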

Additional observations from a re-analysis of the deposited data

How the results depend on the processing

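The 12 alternatives were an absent or stricter filter, the mean of probe sets or every probe set, repeated quantile normalization, an intensity trend, log2 of intensity + 16, the replicate number as a block, and leaving out each array. Of 168 values of single Hox genes, 156 kept their sign and their side of the adjusted threshold. Much of that count was fixed in advance. The changed filters, every probe set, the intensity trend and the replicate block leave the difference of the probe set used as it was. The mean of sets does so for genes with 1 set. Hoxc5, whose probe sets differed in sign, fell below the filter under the mean of sets and is not counted there. The values of Hoxa5, Hoxa9, Hoxc8 and Hoxc9 stayed above 0 in these alternatives, with the probe set used or the mean of sets. Their groups did not overlap, so leaving out an array could not turn the sign.

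The replicate block assumes a pairing that the labels do not give. With it, 156 genes passed the adjusted threshold, 1 of them a Hox gene (Hoxc9, limma adjusted p = 0.0447). Over the alternatives with all 4 arrays that adjusted p ranged from 0.0447 to 0.905. No filter, the filter at the 60th percentile, the mean of probe sets, every probe set, repeated quantile normalization and log2 of intensity + 16 each left 0 genes past it in limma, where 457 to 1122 genes had an unadjusted p under 0.05. At the 60th percentile 4 Hox genes were above the filter (Hoxa5, Hoxb2, Hoxd8, Hoxd9), with 1 at an unadjusted p under 0.05 and a median of 0.051.

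Leaving out 1 array at a time gave 25 to 424 genes and 0 to 1 Hox genes past the adjusted threshold, 1 to 5 Hox genes at an unadjusted p under 0.05, and a Hox median of -0.018 to 0.34. The difference of Hoxc8 lay between 0.52 and 1.555, and that of Hoxc9 between 0.86 and 1.25. The Hox median of -0.018 arose without P54 replicate 2. The median over all genes tested moved too, to 0.12 without P54 replicate 1 and 0.13 without P59 replicate 1, where the Hox median was 0.12. Signs turned for 6 Hox genes when an array was left out, with ranges of -0.43 to 0.017 for Hoxb3 (positive without P59 replicate 2), -0.28 to 0.0072 for Hoxb4 (positive without P59 replicate 1), -0.12 to 0.50 for Hoxc5 and -0.018 to 0.71 for Hoxd8 (negative without P54 replicate 2), -0.59 to 0.15 for Hoxc6 (positive without P54 replicate 2, and 0.029 without P59 replicate 2) and -0.23 to 0.13 for Hoxc13 (positive without P59 replicate 2, and 0.0026 without P54 replicate 1). Hoxc13 was also at 0.0005 after repeated quantile normalization. The cause of these changes was not tested. With an array left out, its group held 1 array and 1 residual degree of freedom remained. The spread within that group could not be measured. No conclusion is therefore drawn from the counts of Hox genes, or of all genes, past a threshold in these fits.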
